A study of Homo sapiens with 6 samples.

Results

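The regions described here are the chromosomal binding sites of RBMX and RPA1 that the first precipitation of each protein gave and the second did not. They were chosen by position from the deposited peak lists: peaks of the replicate 1 lists on chromosomes 1 to 22 and X that shared no base with any peak of either replicate 2 list, leaving out peaks over the RBMX and RPA1 genes and over small nuclear RNA genes. The rule kept 167 RBMX regions of 229 chromosome peaks and 258 peaks in all, and 268 RPA1 regions of 333 chromosome peaks and 360 peaks in all. Of the chromosome peaks, 73.8% of the RBMX list and 84.4% of the RPA1 list overlapped no replicate 2 peak. These shares are what the rule measured and are a description. Among the peaks without an overlap, 1 RBMX and 7 RPA1 peaks were left out over the RBMX and RPA1 genes, and 1 RBMX and 6 RPA1 peaks over small nuclear RNA genes. The 435 regions merged into 399 sites, of which 131 held an RBMX region only, 232 an RPA1 region only and 36 (9.02%) both.

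The cells were 293T, a line of human embryonic kidney origin, and each transfection carried either Flag-RBMX or Flag-RPA1. All cells were kept in camptothecin, a topoisomerase I inhibitor that leaves DNA breaks during replication, for 24 hours, so that no group without the drug was compared. Chromatin bound by the tagged protein was pulled down from sonicated lysates with anti-Flag beads and sequenced. The series has 6 samples: 2 precipitations of each protein, and for the second precipitations an input library each, which were not analysed here as files. The labels do not say whether the precipitations came from separate cultures, and each protein had 1 list per replicate number, so no spread between samples could be computed and no test of a difference was made. The tagged proteins were expressed from transfected constructs, which does not show where the cells' own RBMX and RPA1 sit.

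RBMX, also called hnRNP G, binds RNA and is known for roles in splicing, in sister chromatid cohesion and at stalled replication forks. RPA1 forms the largest part of replication protein A, the trimer that coats single-stranded DNA during replication and repair and that recruits the checkpoint kinase ATR through its partner ATRIP. Promoters that are rich in CpG dinucleotides are open in most cell types, and their transcription can expose single-stranded DNA.

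The promoter sequences that lay under these regions show what many of the sites look like. RefSeq promoters of GRCh38.p14, taken as 250 bases before to 50 after an annotated start, are printed 5′ to 3′ on the strand of the gene. Capitals mark letters searched for on both strands: GGGCGG (the GC box), CCAAT (the site of NF-Y), TATAAA (the TATA box), CCGGAAG (the core of ETS factor sites), CACGTG (the E-box), TGACTCA (the AP-1 site), TGACGTCA (the cyclic AMP response element) and 4 runs of GGG spaced by any 3 bases. The palindromic site of nuclear respiratory factor 1 was also searched. Where motifs overlap, they merge into 1 run of capitals. The promoters of TMEM216 (a transition zone protein of the primary cilium), CDIPT (phosphatidylinositol synthase), STX4 (a syntaxin of the plasma membrane) and POLR2J3-UPK3BL2 (a readthrough locus of an RNA polymerase II subunit gene) are shown first because regions of both proteins overlapped them.
TMEM216, chr11:61392337-61392636, plus strand: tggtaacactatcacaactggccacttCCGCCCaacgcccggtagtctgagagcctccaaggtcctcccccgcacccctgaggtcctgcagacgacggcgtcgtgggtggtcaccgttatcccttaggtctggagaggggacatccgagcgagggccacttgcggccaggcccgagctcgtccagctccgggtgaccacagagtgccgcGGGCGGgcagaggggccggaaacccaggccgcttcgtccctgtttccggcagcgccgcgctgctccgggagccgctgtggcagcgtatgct
CDIPT, chr16:29863177-29863476, minus strand: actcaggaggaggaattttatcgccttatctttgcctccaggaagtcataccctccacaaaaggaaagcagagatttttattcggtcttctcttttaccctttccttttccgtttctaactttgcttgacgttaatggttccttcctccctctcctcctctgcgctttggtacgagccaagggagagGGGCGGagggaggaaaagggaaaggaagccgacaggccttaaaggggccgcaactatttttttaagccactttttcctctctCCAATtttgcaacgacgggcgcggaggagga
STX4, chr16:31033308-31033607, plus strand: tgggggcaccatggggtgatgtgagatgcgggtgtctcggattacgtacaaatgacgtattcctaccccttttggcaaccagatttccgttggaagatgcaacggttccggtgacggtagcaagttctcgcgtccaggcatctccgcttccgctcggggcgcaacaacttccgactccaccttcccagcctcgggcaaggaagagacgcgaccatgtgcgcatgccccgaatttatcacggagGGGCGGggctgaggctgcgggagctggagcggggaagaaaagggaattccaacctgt
POLR2J3-UPK3BL2, chr7:102572534-102572833, minus strand: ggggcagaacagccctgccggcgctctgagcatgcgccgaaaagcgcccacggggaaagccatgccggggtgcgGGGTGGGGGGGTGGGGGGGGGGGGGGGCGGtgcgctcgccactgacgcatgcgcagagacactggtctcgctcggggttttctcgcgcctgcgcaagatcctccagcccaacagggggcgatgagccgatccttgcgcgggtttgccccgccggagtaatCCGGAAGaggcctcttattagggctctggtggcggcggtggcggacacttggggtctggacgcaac
POLR2J3-UPK3BL2 belongs to a family of near-identical copies on chromosome 7, and reads of its copies may not be told apart. The fifth promoter under regions of both proteins was that of LOC107985219, next to PEX19.

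The next promoters lay under a region of 1 protein. PPP4C (the catalytic subunit of protein phosphatase 4) and SEPHS2 (selenophosphate synthetase) are shown because they held the RBMX regions of most tags at a promoter without an RPA1 peak, ZNF771 (a zinc finger gene) because it held the RPA1 region of most tags, and HSPD1 (the mitochondrial chaperonin Hsp60) because it was the strongest hit among heat shock genes.
PPP4C, chr16:30075744-30076043, plus strand: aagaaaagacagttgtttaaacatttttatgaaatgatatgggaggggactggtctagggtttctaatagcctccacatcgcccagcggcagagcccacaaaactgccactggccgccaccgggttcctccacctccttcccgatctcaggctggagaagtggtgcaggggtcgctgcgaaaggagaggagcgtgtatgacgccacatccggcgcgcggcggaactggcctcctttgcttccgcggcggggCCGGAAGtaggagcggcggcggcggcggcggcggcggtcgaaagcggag
SEPHS2, chr16:30445825-30446124, minus strand: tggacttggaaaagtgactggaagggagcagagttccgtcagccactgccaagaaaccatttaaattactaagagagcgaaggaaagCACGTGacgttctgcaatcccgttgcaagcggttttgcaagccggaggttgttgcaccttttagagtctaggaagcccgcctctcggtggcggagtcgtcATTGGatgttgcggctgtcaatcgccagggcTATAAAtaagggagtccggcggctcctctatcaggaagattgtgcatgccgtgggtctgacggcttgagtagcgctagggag
ZNF771, chr16:30407356-30407655, plus strand: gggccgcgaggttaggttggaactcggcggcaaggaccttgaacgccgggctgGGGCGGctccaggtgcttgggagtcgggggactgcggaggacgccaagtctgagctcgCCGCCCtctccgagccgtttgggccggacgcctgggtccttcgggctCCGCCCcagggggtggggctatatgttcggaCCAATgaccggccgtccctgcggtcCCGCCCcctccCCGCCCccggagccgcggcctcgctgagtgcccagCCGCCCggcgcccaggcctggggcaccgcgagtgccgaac
HSPD1, chr2:197499791-197500090, minus strand: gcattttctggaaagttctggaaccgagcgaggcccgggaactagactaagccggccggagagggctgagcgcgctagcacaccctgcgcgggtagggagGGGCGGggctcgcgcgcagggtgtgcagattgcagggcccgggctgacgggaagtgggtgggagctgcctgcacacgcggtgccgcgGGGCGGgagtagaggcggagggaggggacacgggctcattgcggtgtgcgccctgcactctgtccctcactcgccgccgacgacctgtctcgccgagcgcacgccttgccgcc
The HSPD1 start lies back to back with that of HSPE1, the gene of its co-chaperonin, and a single RPA1 region covered both.

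The regions were weak and mostly near the calling threshold. The tags, the fold over the local background and the −log10 p of each peak are the authors' own values. In the RBMX list the regions held 14 to 164 tags with a median of 28, and their fold ran from 2.93 to 18.04 with a median of 5.28. In the RPA1 list they held 14 to 163 tags with a median of 28, and their fold ran from 2.62 to 18.46 with a median of 5.61. Both lists therefore had nearly the same range. The replicate 1 chromosome peaks that replicate 2 did hold, 60 for RBMX and 52 for RPA1, had median tags of 43.5 and 49 and median folds of 10.97 and 11.22. The caller required a −log10 p of 5, and 107 RBMX regions (64.1%) and 162 RPA1 regions (60.4%) had one under 6. Only 10 RBMX and 15 RPA1 regions reached a −log10 p of 10, and 16 and 21 reached a fold of 10.

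Width separated the regions less than signal did. The median width was 921 bp for RBMX regions against 856 bp for the RBMX peaks found again, and 896 bp for RPA1 regions against 851.5 bp. Per kb of peak, the regions had a median of 30.61 tags (RBMX) and 30.15 tags (RPA1), and the peaks found again had 53.25 and 72.85. The wider a region was, the lower its fold (Spearman's rho −0.76 over the 167 RBMX regions and −0.71 over the 268 RPA1 regions). These are descriptions across regions of 1 library each, and width and fold come from the same tags.

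**Figure D1:**
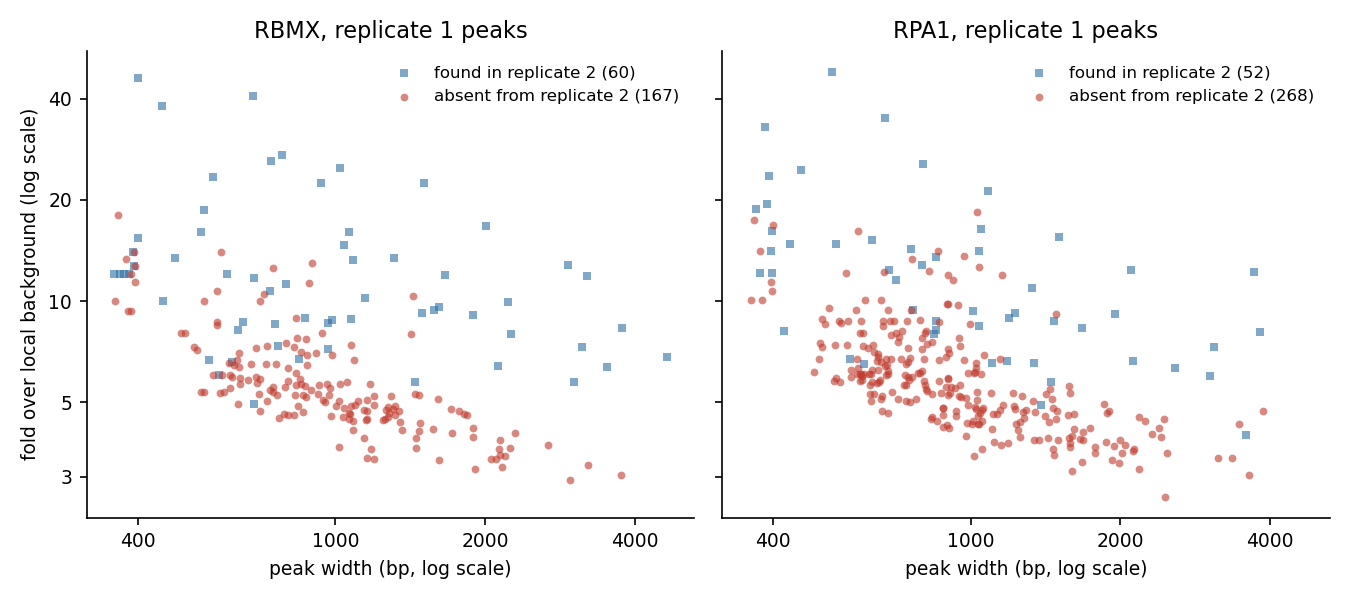
Fold over the local background (y axis, log scale) against peak width in bp (x axis, log scale) for replicate 1 chromosome peaks of RBMX (left) and RPA1 (right); each point is a peak, red where replicate 2 has no overlapping peak and blue where it has one. Most red points form a band in which fold falls as width rises, with medians of 5.28 and 5.61, below most blue points.

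Depth differed along with the processing. Replicate 1 had 20199680 tags for RBMX and 20089972 for RPA1, per the file headers, and replicate 2 had 6664290 and 6889249, which is 33.0% and 34.3% as many. Scaled to the replicate 2 depth, the median region would hold 9.24 tags (RBMX) or 9.6 tags (RPA1). The deposited replicate 2 pileups were divided by the ratio of input to precipitation tags (0.959 for RBMX and 0.681 for RPA1) to give tags. The lowest summit pileup among the replicate 2 peaks was then 13 tags for RBMX and 16 for RPA1. Scaled in this way, 126 of the 167 RBMX regions (75.4%) and 218 of the 268 RPA1 regions (81.3%) fell below that pileup. The same held for 26 of the 60 RBMX peaks (43.3%) and 21 of the 52 RPA1 peaks (40.4%) that replicate 2 did hold, so falling below it did not by itself mean absence. Tags over a whole peak and a pileup at a summit are also different measures. The replicate 1 lists came from another caller with no input and a looser threshold, and depth, these differences and the replicate number cannot be told apart.

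The rule's threshold was an overlap of 1 bp, and few regions lay close to it. The nearest were an RPA1 region at chr1:143244815-143245375, 59 bp from a replicate 2 peak with 42 tags and a fold of 12.12, and an RPA1 region at chr1:143234207-143234871, 518 bp away with 17 tags and a fold of 8.74. The next was an RBMX region at chr8:85769421-85769803, 3895 bp away with 14 tags. Just outside the rule lay RBMX peaks at chr1:143238099-143238865 (174 bp of overlap, 19 tags) and chr7:59167484-59167852 (200 bp, 18 tags) and the RPA1 peak at chr7:59167484-59167860 (200 bp, 18 tags). The median distance of a region to the nearest replicate 2 peak was 7.13 Mb for RBMX and 6.37 Mb for RPA1.

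The regions gathered at gene boundaries. The midpoint lay within 1 kb of the start or end of an annotated gene for 74 of 167 RBMX regions (44.3%, exact 95% Clopper-Pearson interval 36.6 to 52.2) and for 134 of 268 RPA1 regions (50%, 43.9 to 56.1). Over all chromosome peaks of the lists the shares were 36.7% and 44.1%. Of the peaks found again, 9 of 60 RBMX peaks (15%, 7.10 to 26.6) and 7 of 52 RPA1 peaks (13.5%, 5.59 to 25.8) lay there. Such sequence makes up 6.16% of the span from the first to the last gene of the chromosomes. A further 45 RBMX regions (26.9%) and 68 RPA1 regions (25.4%) had their midpoint elsewhere inside a gene, against 55.2% of the span. These intervals cover counting error only.

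The contrast with the peaks found again was smaller outside gene-free stretches, which include centromeres and the heterochromatin beside them. Stretches of at least 1 Mb without a gene held 34 of the 60 RBMX peaks found again (56.7%) and 27 of the 52 RPA1 peaks (51.9%), but 12 RBMX regions (7.19%) and 15 RPA1 regions (5.60%). With those stretches left out, the boundary share was 47.7% for RBMX regions (74 of 155, 39.7 to 55.9) against 34.6% for 26 peaks found again (17.2 to 55.7). It was 53% for RPA1 regions (134 of 253, 46.6 to 59.2) against 28.0% for 25 peaks found again (12.1 to 49.4). The intervals overlapped for both proteins.

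Most of the boundaries were starts. Leaving out chromosome 8, which the promoter table used here does not cover, the summit lay within 1 kb of an annotated start for 52 of 71 RBMX boundary regions (73.2%) and 89 of 130 RPA1 boundary regions (68.5%). A region overlapped one of the 300 bp promoters in 43 of 160 cases for RBMX (26.9%, 20.2 to 34.4) and 95 of 258 for RPA1 (36.8%, 30.9 to 43.0). Over all peaks of the lists on those chromosomes the shares were 20.4% and 30.1%. Among the peaks found again the counts were 1 of 59 (1.69%, 0.0429 to 9.09) and 1 of 51 (1.96%, 0.0496 to 10.4). Of the 45 RBMX and 97 RPA1 replicate 1 peaks at a promoter, replicate 2 held 1 of each.

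**Figure D2:**
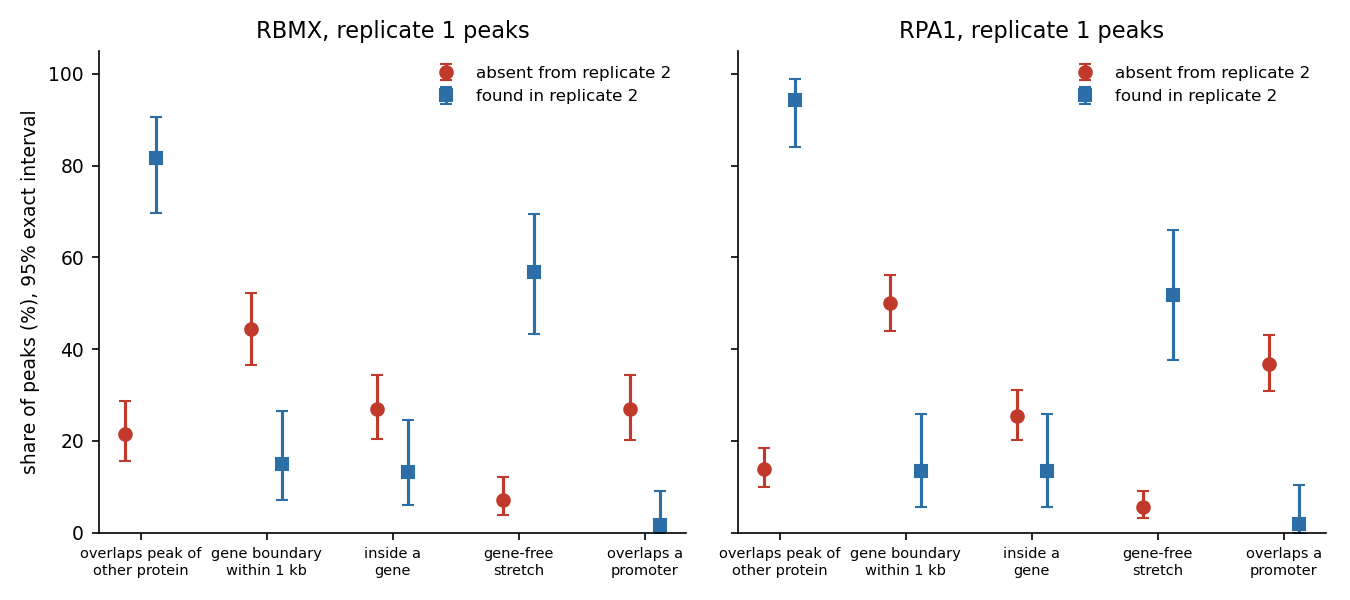
Share of replicate 1 chromosome peaks in percent (y axis) that overlap a replicate 1 peak of the other protein or lie in each kind of position (x axis), for RBMX (left) and RPA1 (right); red circles are regions absent from replicate 2, blue squares peaks found again, and bars are exact 95% intervals. Promoter shares are 26.9% and 36.8% in red against 1.69% and 1.96% in blue, while shares of overlap with the other protein and of gene-free stretches run the other way.

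Promoter regions were broad and shallow. For RBMX their median width was 1277 bp, with 43 tags and a fold of 4.65, against 835 bp, 25 tags and 5.65 for the other 117 regions on those chromosomes. For RPA1 it was 1162 bp, with 38 tags and a fold of 4.61, against 755 bp, 22 tags and 6.10 for the other 163. A wider peak has more chance to touch a promoter, and the part of width in the overlap was not tested. RPA1 summits sat closer to the start: the median distance was 218 bp over 95 RPA1 regions and 415 bp over 43 RBMX regions. The summit was within 250 bp for 51 RPA1 and 13 RBMX regions. It lay downstream of the start for 59 RPA1 and 27 RBMX regions and upstream for 36 and 16.

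The promoters under the regions were rich in G and C. Their median GC content was 63.2% for the 62 promoters under RBMX regions and 67.0% for the 143 under RPA1 regions, against 58.7% for all 34961 promoters of the table and 62.3% for those of protein-coding genes. The ratio of observed to expected CpG had medians of 0.789 and 0.818, against 0.58 and 0.738. A start on the opposite strand lay within 1 kb for 38.7% and 42.0% of them, against 22.6% of all promoters. For promoters of protein-coding genes only, the contrast was smaller, above all for RBMX. It was 27.7% under RBMX regions (13 of 47) and 35.9% under RPA1 regions (42 of 117), against 5094 of 22131 coding promoters. A region over a head-to-head pair counts both promoters, and its part in these shares was not tested. Promoters of both strands lay under 8 of 43 RBMX and 20 of 95 RPA1 promoter regions. Head-to-head pairs under a single RPA1 region included HSPD1 with HSPE1, APTX (aprataxin, a DNA end-processing enzyme) with DNAJA1, and ZNF461 with ZNF567.

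The motif counts followed the same composition. GGGCGG was present in 77.4% of promoters under RBMX regions and 74.8% under RPA1 regions, against 45.0% of all promoters of that length and 56.3% of coding ones. CCGGAAG was present in 29.0% and 25.2%, against 10.3% and 12.8%. TATAAA was present in 6.45% and 5.59%, against 11.5% and 9.46%. TGACTCA was present in 1.61% and 0.699% (1 promoter each), against 4.92% and 4.01%. CCAAT, at 27.4% and 38.5%, lay on either side of the 34.6% of all promoters. CACGTG was present in 12.9% and 9.09%, against 7.27% of all and 8.34% of coding promoters. TGACGTCA was present in 1.61% and 2.80% (1 and 4 promoters), against 1.85% and 2.26%. The site of nuclear respiratory factor 1 was present in 4.84% and 2.10% (3 promoters each), against 1.24% and 1.5%. The 4 spaced GGG runs, a pattern that can fold into a G-quadruplex, were present in 3.23% and 4.90% (2 and 7 promoters), against 2.47% and 3.16%. Counts this small do not set the rarer motifs apart from the background. These are matches of letters in promoters that were not matched for GC content, and several promoters can share 1 region.

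Few promoters were under listed regions of both proteins. RBMX regions overlapped promoters of 54 genes and RPA1 regions those of 118, and 5 genes were in both sets (9.26% and 4.24%). Over all regions 21.6% (RBMX) and 13.8% (RPA1) met a peak of the other protein. Most regions were close to the caller's threshold, and a promoter without a listed peak may hold tags below it, so this count does not show that the proteins differed there. Among the genes under RPA1 regions, picked after their values were seen for their known part in replication and repair, were RAD54L (a motor protein of homologous recombination; 50 tags, fold 5.34) and DBF4B (an activator of the CDC7 kinase; 21 tags, fold 5.05). The RPA1 promoter region of largest fold lay at L1CAM, a neural adhesion molecule on chromosome X, with 40 tags and a fold of 13.59, and no RBMX peak overlapped it. The next was at HTR5A, a serotonin receptor, with 28 tags and a fold of 9.72. For RBMX the largest were at FAM230G on chromosome 22 (19 tags, fold 10.69), a member of a family of repeated copies whose reads may not be told apart, and at LOC105373456 on chromosome 2 (21 tags, fold 7.32).

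RBMX and RPA1 had few of these sites in common in the lists. An RPA1 peak of replicate 1 overlapped 36 of the 167 RBMX regions (21.6%, 15.6 to 28.6), and an RBMX peak overlapped 37 of the 268 RPA1 regions (13.8%, 9.91 to 18.5). Over all chromosome peaks of the lists the shares were 37.6% and 26.1%. Of the peaks found again, 49 of 60 RBMX peaks (81.7%, 69.6 to 90.5) and 49 of 52 RPA1 peaks (94.2%, 84.1 to 98.8) were shared. The difference between the 36 and the 37 is the RPA1 region at chr1:143244815-143245375, which met an RBMX peak that replicate 2 held. Of the 131 RBMX and 231 RPA1 regions without a partner, none had a listed peak of the other protein within 1 kb. A listed peak lay within 100 kb for 18 and 20. Tags of the other protein under the caller's threshold would not be listed, so these distances do not show its absence.

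Sharing went with strength. Among the 42 RBMX and 67 RPA1 regions of largest fold, 21 of 42 RBMX regions (50%) and 24 of 67 RPA1 regions (35.8%) were shared, against 15 of 125 (12%) and 13 of 201 (6.47%) of the rest. At a −log10 p of at least 10, 9 of 10 RBMX and 13 of 15 RPA1 regions were shared, and at one under 6, 7 of 107 (6.54%) and 8 of 162 (4.94%). Position showed the same contrast. In gene-free stretches 10 of 12 RBMX regions (83.3%, 51.6 to 97.9) and 11 of 15 RPA1 regions (73.3%, 44.9 to 92.2) were shared. At promoters 5 of 43 (11.6%, 3.89 to 25.1) and 5 of 95 (5.26%, 1.73 to 11.9) were. Promoter regions also had lower folds, and the part of fold in this contrast was not tested.

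Where both proteins had a region, their tags were close. Such pairs need both proteins to pass the caller's threshold, which leaves out sites where 1 protein had too few tags for a listed peak. Over the 36 pairs the ratio of RBMX to RPA1 tags ran from 0.529 to 1.60 with a median of 0.96, with more RBMX tags in 15 pairs and more RPA1 tags in 21. Tags of the proteins went together over the pairs (Spearman's rho 0.90), as did fold (0.90), in libraries of nearly equal depth. The part of peak width in these values was not tested. The Poisson intervals of the 2 counts were apart in 1 pair. That pair was at NPAS4, the gene of an activity-induced transcription factor, at chr11:66421341-66422238, where RBMX had 37 tags (26.1 to 51.0) and RPA1 70 tags (54.6 to 88.4). These intervals cover counting error only.

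The pairs fell into a sharp and a broad kind. The 2 summits were within 50 bp of each other in 19 pairs, and in the 17 others they were up to 1096 bp apart. Of the 19 pairs whose smaller fold was at least 7, 16 had summits within 50 bp, with a median distance of 4 bp. Of the 17 pairs below that fold, 3 had, and the median distance was 389 bp. All 5 promoter pairs had summits 115 to 1096 bp apart, and 9 of the 10 pairs in gene-free stretches had them within 50 bp. The fold of 7 was set after the values were seen. At STX4 the regions held 113 RBMX and 78 RPA1 tags at folds of 3.26 and 3.29, with summits 115 bp apart. At CDIPT they held 87 and 82 tags at folds of 3.65 and 3.85, with summits 717 bp apart. How well a summit is placed in such broad regions of low fold was not tested.

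**Figure D3:**
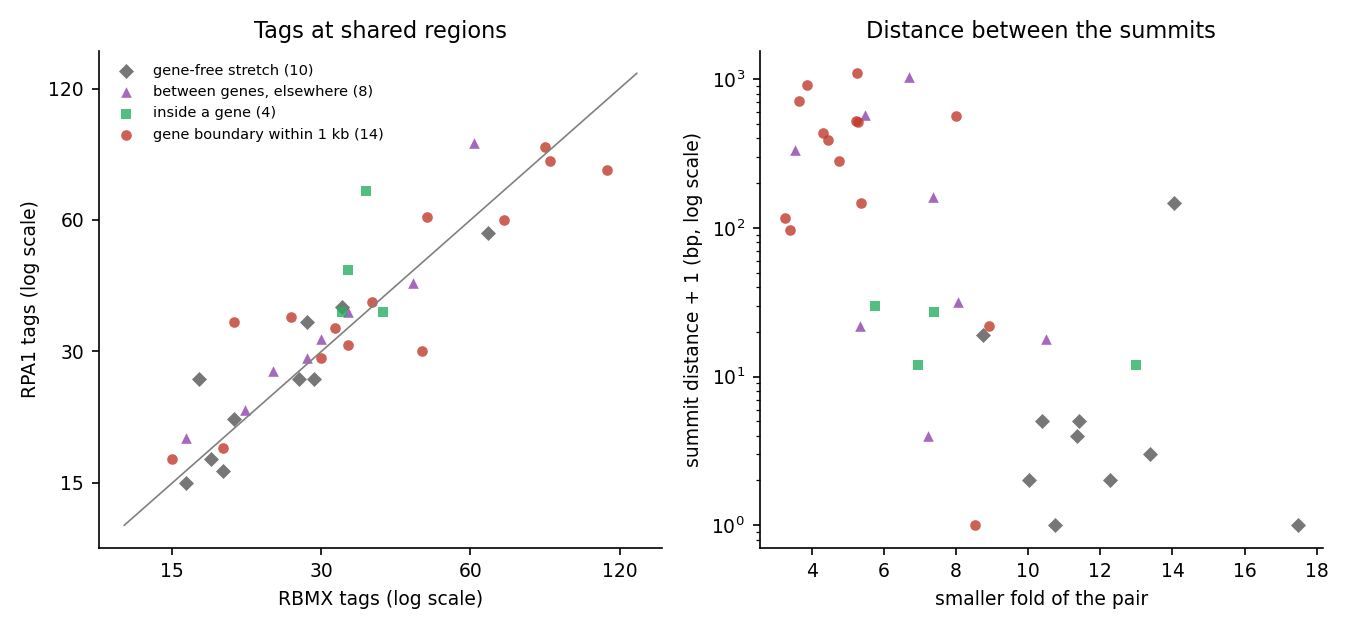
Left, RPA1 tags against RBMX tags (both axes log scale) at the 36 regions shared by both proteins, with the line of equal tags; right, distance between the RBMX and RPA1 summits plus 1 bp (log scale) against the smaller fold of the pair. Symbols give the position of the region: points on the left lie along the line, with NPAS4 at 37 and 70 tags above it, and on the right most pairs with a fold of at least 7 lie within 50 bp while most promoter and boundary pairs lie over 100 bp apart.

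The regions of largest fold were mostly far from genes. Of the 10 of largest fold, 8 RBMX and 6 RPA1 regions lay in gene-free stretches, and 9 and 8 were shared. The strongest RBMX region was at chr17:26594719-26595084, with 27 RBMX tags at a fold of 18.04 and 26 RPA1 tags at 17.47, and its summits coincided. On chromosome 4, 4 narrow regions of both proteins lay between positions 50206790 and 51107715. They were 376 to 592 bp wide, held 17 to 28 RBMX and 16 to 35 RPA1 tags, and had folds of 11.36 to 14.03 for RBMX and 10.75 to 16.80 for RPA1. Others of this kind lay on chromosome 7 (chr7:58986005-58986392, 18 and 17 tags), chromosome 10 (65 and 56 tags) and in the stretch on chromosome 1 (33 and 38 tags at chr1:143272574-143273321, and 29 and 26 tags at chr1:143275251-143276133). A shared region at chr4:49149271-49149987, outside the gene-free stretches, held 28 RBMX and 29 RPA1 tags at folds of 10.48 and 11.96. Unshared among the strongest were an RBMX region at chr8:85742842-85743234 (21 tags, fold 14.03) and an RPA1 region at chr4:49657153-49658013 (24 tags, fold 14.11). Sequence in gene-free stretches is repeated, and reads of its copies may not be told apart.

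A few strong regions lay in or near genes. Besides NPAS4, where the RPA1 fold of 18.46 was the largest of all regions, shared regions lay at MIR7-3HG, the host gene of a miR-7 precursor (26 RBMX and 36 RPA1 tags, folds 8.91 and 12.64), and between genes near NKX1-1, a homeobox gene (34 and 37 tags, folds 8.04 and 13.30). UNC5A, a netrin receptor, held 34 and 46 tags at folds of 7.39 and 8.57. SYT7, a calcium sensor of vesicle fusion, held 33 and 37 tags at folds of 5.74 and 11.54. All 4 pairs inside genes had summits within 29 bp of each other, unlike those at promoters.

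Chromosome 1 held more regions than its share of genes, as it did of all replicate 1 peaks. It carried 40 RBMX regions (24.0%, 17.7 to 31.2) and 58 RPA1 regions (21.6%, 16.9 to 27.1), with 9.52% of the annotated genes. Over all replicate 1 chromosome peaks its share was 25.8% for RBMX and 21.9% for RPA1, and among the peaks found again 18 of 60 (30%) and 10 of 52 (19.2%) lay there. Most of those found again, 14 RBMX and 6 RPA1 peaks, lay in its largest gene-free stretch, which held only 2 RBMX and 4 RPA1 regions. The share of the whole chromosome therefore does not compare the 2 groups on the arms of chromosome 1. Its long arm, taken as the part beyond the gene-free stretch that ends at position 143299517, carried 18 RBMX regions (10.8%, 6.51 to 16.5) and 22 RPA1 regions (8.21%, 5.22 to 12.2), with 4.57% of the genes. The short arm carried 20 (12%) and 32 (11.9%), with 4.95% of the genes, so the excess was not particular to the long arm. Per 1000 genes the arms held 6.66 (long) and 6.84 (short) RBMX regions against 2.83 over all chromosomes. For RPA1 they held 8.14 and 10.9, against 4.54. Of all chromosome peaks 8.73% (RBMX) and 8.71% (RPA1) lay on the long arm, and 10.0% and 10.2% on the short arm. Of the peaks found again, 1 of 60 (1.67%) and 2 of 52 (3.85%) lay on the long arm, and 3 of 60 (5.0%) and 2 of 52 (3.85%) on the short arm. Gene-free stretches held 34 of the 60 RBMX and 27 of the 52 RPA1 peaks found again, which lowers their share on the arms. With so few peaks found again on the arms, the shares do not show whether the excess was particular to the regions. The difference was not tested. No input was compared at these positions in replicate 1, which was called without one.

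Most regions of the long arm were at a gene boundary. Of the 18 RBMX regions there 13 were at a gene boundary and 10 at a promoter, and of the 22 RPA1 regions 15 and 10. Between genes lay 3 regions of each protein. RBMX regions lay at RBM8A (a core protein of the exon junction complex; 55 tags, fold 4.71), ILF2 (a nuclear RNA-binding protein; 52 tags, fold 4.35), RFX5 (a regulator of MHC class II genes; 66 tags, fold 3.45) and NEK2 (a centrosomal kinase; 38 tags, fold 3.40). RPA1 regions lay at ADAR (an RNA adenosine deaminase; 49 tags, fold 3.31), HAX1 (48 tags, fold 3.77), DDX59 (an RNA helicase; 66 tags, fold 4.72) and EIF2D (a translation factor; 39 tags, fold 4.61). None of these was shared. The shared regions of the arm were at PEX19 with LOC107985219 (48 RBMX and 30 RPA1 tags) and at TRIM17 (38 and 39 tags).

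Other chromosomes departed from their share of genes too, in most cases along with all replicate 1 peaks. Chromosome 16 carried 14 RBMX (8.38%) and 24 RPA1 regions (8.96%) with 3.68% of the genes, below its 10.9% and 10.8% of all peaks. Of the peaks found again it carried 11 of 60 and 12 of 52. Chromosome 19 carried 10 (5.99%) and 29 (10.8%) with 4.57% of the genes and 4.80% and 8.71% of all peaks. Chromosome 20 carried 9 (5.39%) and 12 (4.48%) with 2.50% of the genes and 3.93% and 3.60% of all peaks. Chromosome 2 carried only 3 RBMX (1.80%) and 11 RPA1 regions (4.10%) with 7.20% of the genes, and chromosome 13 no RBMX and 2 RPA1 regions with 2.60%. Their shares of all peaks were low as well, at 1.31% and 3.3% for chromosome 2 and 0% and 0.601% for chromosome 13. The median tags per kb varied little among chromosomes 1, 16 and 19, at 31.9, 33.8 and 30.3 for RBMX and 31.7, 34.5 and 30.3 for RPA1.

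**Figure D4:**
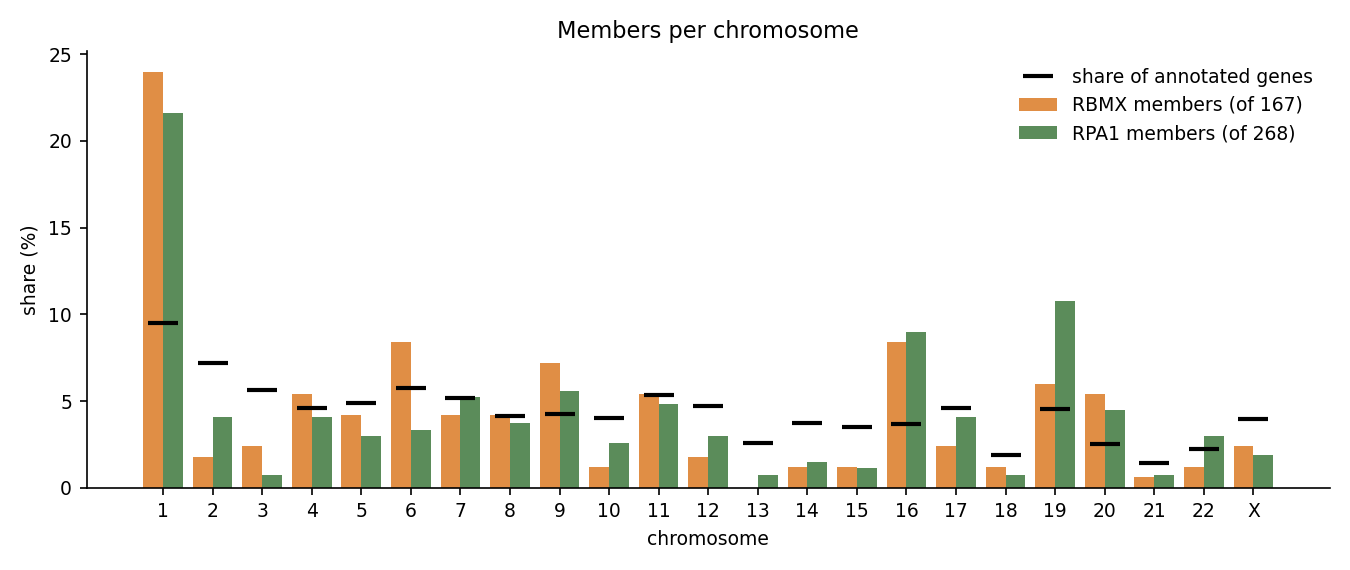
Share of regions in percent (y axis) on each chromosome (x axis) for RBMX (orange bars, 167 regions) and RPA1 (green bars, 268 regions), with black dashes for the share of annotated genes. Chromosome 1 stands at 24.0% and 21.6% against 9.52% of genes, and chromosome 2 at 1.80% and 4.10% against 7.20%.

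A part of the regions lay in runs. Counting overlapping regions of both proteins as 1 site, 146 of the 435 regions (33.6%; 56 RBMX and 90 RPA1) lay in 28 chains in which at least 3 sites fell within 1 Mb. Of these runs 10 were on chromosome 1 and 5 on chromosome 19, and 13 held only 3 sites. Runs were not counted over all replicate 1 peaks, so they are not shown to be particular to the regions. The largest was chr16:29862234-31035351, a gene-dense part of the short arm, where 20 sites in 1173 kb held 8 RBMX and 15 RPA1 regions. The next in number was chr1:30823672-32730479, with 10 sites, 4 RBMX and 7 RPA1 regions, which included HDAC1 (a histone deacetylase), TMEM39B and ZBTB8B.

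The chromosome 16 run held the widest regions. Its RBMX regions were 1450 to 3762 bp wide with 54 to 164 tags, and the other 159 RBMX regions were at most 2301 bp wide with at most 85 tags. Its RPA1 regions were 1439 to 3877 bp wide with 41 to 163 tags, and the other 253 RPA1 regions reached 3630 bp and 136 tags. Regions of 100 or more tags numbered 3 RBMX and 4 RPA1 in the run, and 0 and 1 elsewhere. Their fold stayed low, at 2.93 to 3.95 for RBMX and 2.62 to 4.70 for RPA1, and their medians of 36.69 and 36.95 tags per kb were above the 30.08 and 29.95 of the regions elsewhere. A promoter was overlapped by 6 of the 8 RBMX and 12 of the 15 RPA1 regions, and 3 of each were shared.

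Most of the genes with a listed region in this run had a region of 1 protein only. RBMX alone had listed regions at KCTD13 (90 tags, fold 3.72), a BTB adaptor of a ubiquitin ligase, at DOC2A (54 tags, fold 3.65), a calcium sensor of synaptic vesicles, at PPP4C (107 tags, fold 2.93) and at SEPHS2 (164 tags, fold 3.03). RPA1 alone had them at TMEM219 (76 tags, fold 3.94), at TAOK2 (121 tags, fold 3.41), a stress-responsive kinase, at ZNF771 (163 tags, fold 4.70), at DCTPP1 (132 tags, fold 4.31), a nucleotide pyrophosphatase, and at PRR14 (94 tags, fold 4.46). Further RPA1 regions lay at ZNF768 (91 tags), FBRS (117 tags), RNF40 (73 tags), ZNF629 (66 tags) and ORAI3 (74 tags), at MIR762HG with MIR4519 (54 tags) and between genes at chr16:29943489-29944927 (41 tags), and a further RBMX region at BCL7C and MIR762HG (72 tags). Both proteins had regions at CDIPT, at SEZ6L2 with ASPHD1 (70 RBMX and 60 RPA1 tags) and at STX4. A gene without a listed peak of one protein may hold tags under the caller's threshold, which a peak list does not show.

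**Figure D5:**
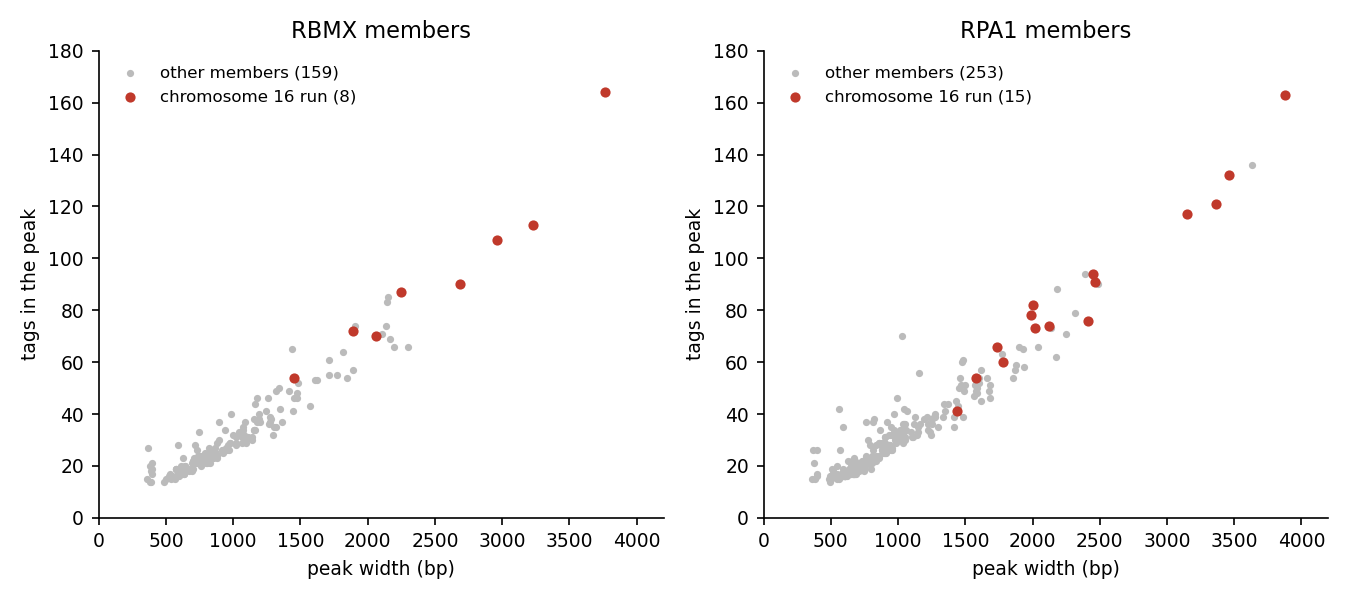
Tags in the peak (y axis) against peak width in bp (x axis) for RBMX regions (left) and RPA1 regions (right) absent from replicate 2; red points are the 8 RBMX and 15 RPA1 regions of the run on chromosome 16, grey points all others. The red points reach 164 and 163 tags at widths of 3762 and 3877 bp, while the other RBMX regions stay at or below 85 tags.

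Gene families were touched rarely. Of 59094 placed genes, 181 (0.306%) were overlapped by or within 1 kb of an RBMX region and 288 (0.487%) of an RPA1 region, 34 of them in both. Among 19970 protein-coding genes the counts were 118 (0.591%) and 204 (1.02%). No region met any of 42 genes of the p53 and DNA damage response, 52 abundantly transcribed genes, 80 ribosomal protein genes or 82 protocadherin genes. Of 22 heat shock genes, 3 were met by RPA1 and 0 by RBMX: HSPD1 and HSPE1 under 1 region (59 tags, fold 4.64) and DNAJA1 (54 tags, fold 3.89). Of 54 immediate early genes, NPAS4 was the 1 met, by both proteins.

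Zinc finger and histone genes were met in small numbers, and no difference between the proteins was tested. Of 836 zinc finger genes, 12 (1.44%) were met by RPA1 regions, against 1.02% of protein-coding genes, and 2 (0.239%, against 0.591%) by RBMX regions, ZKSCAN2 (17 tags, fold 6.01) and ZBTB5 (37 tags, fold 4.51). Of the 12 under RPA1, ZNF461 and ZNF567 shared 1 region (20 tags, fold 5.81), and ZNF771, ZNF629 and ZNF768 lay in the chromosome 16 run. Of 95 replication-dependent histone genes, 3 were met by RBMX, all under a single region on chromosome 1 (29 tags, fold 4.64) at H2AC18, H2BC19P and H4C15, and 0 by RPA1. These histone genes have near-identical copies, and reads of them may not be told apart. Among genes at common fragile sites, which break under replication stress, an RPA1 region lay in LRP1B (15 tags, fold 7.39), and RBMX regions met 0 of the 20 genes listed.

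Few small RNA genes were met, 1 or 2 per protein and list, too few to set their shares against those of all placed genes. The shares were 0.392% (RBMX) and 0.196% (RPA1) for transfer RNA genes and 0.349% for both proteins for small nucleolar and Cajal body RNA genes. Over all placed genes they were 0.306% and 0.487%. Of 510 transfer RNA genes, RBMX regions met TRG-CCC5-1 (41 tags, fold 4.43) and TRX-CAT1-1 (52 tags, fold 4.35, the region at ILF2), and an RPA1 region met TRN-GTT2-2 (39 tags, fold 4.47). Of 573 small nucleolar and Cajal body RNA genes, SNORD45A and SNORD45C lay under the RBMX region at RABGGTB (44 tags, fold 4.72), and SNORD3B-2 (16 tags, fold 8.06) and SNORA57 (49 tags, fold 4.71) were met by RPA1. Among homeobox and developmental transcription factor genes, an RPA1 region lay at FOXP4 (18 tags, fold 5.81), and RBMX regions met 0 of the 294 genes listed. Solute carrier genes were met in 4 cases by RBMX and 2 by RPA1, of 550, with SLC44A5 (22 tags, fold 5.29) and SLC38A7 (31 tags, fold 5.05) among those of RBMX. Regions met 6 (RBMX) and 5 (RPA1) of 1998 microRNA and host genes, 3 and 4 of 2310 long intergenic noncoding RNA genes, 1 and 1 of 390 keratin and collagen genes, and 1 and 0 of 875 olfactory receptor genes.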

How the data were processed

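Flag-RBMX and Flag-RPA1 were precipitated from 293T cells, and the 4 peak lists, called per sample, were used as the authors deposited them. Positions are on hg38 (GRCh38), and the tools listed were deepTools 3.4.1, Bowtie2, MACS and MACS2 2.2.4, all per the submitters' processing notes. Replicate 1 was called with MACS 1.4.2 and no control, and replicate 2 with MACS2 2.2.4 against an input and at a stricter p-value cutoff, per the file headers. The authors gave each replicate 1 peak its tags as a count, a score equal to 10 times −log10 of its p-value (divided by 10 here), and a fold, the ratio of its tags to those of the local background. The deposited replicate 2 signal is the pileup at the summit, and its −log10 p-values and q-values are the caller's. The replicate 1 peaks, which give all regions described here, were not set against an input at their own position.

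Overlaps needed 1 bp. Gene positions came from RefSeq GRCh38.p14, where 59094 genes were placed. Positions count from 1. The members, the gene lists and the named genes were chosen with earlier results of these data known. Named were the 10 regions of largest fold per list, the 10 strongest shared regions, regions at genes of the lists, those nearest the threshold and regions in runs, of which the largest run is given in full and the others by examples; other promoter genes were picked after their values were seen. Shares have exact 95% Clopper-Pearson intervals. A Y chromosome peak (1) was not included. Python 3.11.15, pandas 2.3.3, NumPy 2.4.6, SciPy 1.17.1 and matplotlib 3.10.9 were used, and the overlap and position code was tested on simulated data. Some RPA1 regions at genes of the lists are not reported here.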

Additional observations from a re-analysis of the deposited data

How the results depend on the processing

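The number of regions, their sharing, boundary and long-arm shares and their median width, tags and fold, 14 values in all, were recomputed under 17 alternatives, 1 of them (leaving out the chromosome 16 run) chosen after seeing the data. Of 118 recomputed values 96 stayed within 1.5 times the count or within the 95% interval of the share or median. Requiring a −log10 p of at least 10 left 10 RBMX and 15 RPA1 regions, and a fold of at least 10 left 16 and 21. At that −log10 p the sharing rose to 90.0% and 86.7%, the boundary share was 10.0% and 13.3%, none (0%, upper limits 30.8% and 21.8%) lay on the long arm of chromosome 1, the median fold was 12.8 and 12.6, the RBMX median width was 668 bp and the RPA1 median tags were 37. The boundary interval there was 0.253% to 44.5% for RBMX, which includes the 44.3% of all RBMX regions. For RPA1 it was 1.66% to 40.5%, below the 50% of all RPA1 regions. The upper limits for the long arm include the 10.8% and 8.21% of all regions. With 10 and 15 regions, the 0 on the long arm does not set the strongest regions apart. Counting a peak as found again only when 50% of both peaks overlapped gave sharing of 29.9% (RBMX) and 19.7% (RPA1) and an RBMX median fold of 5.60. The boundary share was 28.7% and 39.2% within 500 bp, 56.3% within 2 kb for RPA1, and 35.3% and 38.8% for protein-coding genes only. Leaving out either replicate 2 list kept 168 to 173 RBMX and 269 to 271 RPA1 regions. No paired analysis was possible because the results come from no test and each protein has 1 list per replicate number. Replicate 2 had fewer tags, another caller and a stricter threshold, and their parts in the absence of these regions cannot be told apart.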
